A study of Mus musculus with 2 samples.

Results

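The models described here are transcript structures of mouse hippocampus that use at least 1 splice site absent from the reference annotation and that were read repeatedly in both libraries of the study. They were chosen by 3 conditions: the class NNC (the class of the study's annotation tool for a model with an unannotated splice site) in both deposited tables, the same chromosome, strand and exact chain of introns in both, and at least 5 reads in each library. Of 139496 intron chains with reads in either library, 35283 had the class NNC in at least 1 table and 2772 in both, and 230 met all 3 conditions. These 230 models lay in 220 genes on 20 chromosomes, of which 227 models were in protein-coding genes. The read counts and the class were what chose the models, so their reads and shares are given as a description.

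The study is long-read RNA sequencing, which reads a transcript from end to end and so shows which splice sites were joined in 1 molecule. The data are 2 libraries of 1 group: hippocampus of female B6CASTF1/J mice aged 2 months, the first-generation cross of C57BL/6J and CAST/EiJ, each library from 2 µg of total RNA, with no treatment named. The labels number them as biological replicates 1 and 2 and do not say plainly that they came from separate animals, so every spread given is that between these 2 libraries. There is no second condition. Replicate 1 held 826596 reads outside the spike-ins and replicate 2 held 745492, so 1 read is worth 1.21 and 1.34 CPM (reads scaled to a library of 1000000). All 5 neuronal markers were read in both libraries (Slc17a7, the vesicular glutamate transporter of excitatory neurons, at 1205 and 1182 CPM), as were markers of dentate granule, CA1 and CA3 neurons, astrocytes, oligodendrocytes, microglia and endothelium. Of 4 choroid plexus markers, Ttr was at 328 CPM in replicate 1 and 176 in replicate 2, Kcnj13 and Folr1 had between 1 and 6 reads, and Aqp1 had no read in either.

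Splicing removes introns by cutting at a donor site, where nearly all introns begin with GT, and at an acceptor site, where nearly all end with AG. Small changes at a site are well known from other work. Tandem acceptors a few bases apart let a cell add or omit an amino acid, the best known being an AG followed at once by any base and another AG. Tandem donors are common at a spacing of 4 bases, since the donor signal tends to carry a second GT inside itself, and a move by 4 bases shifts the reading frame. Brain transcripts are also rich in microexons, exons so short that they encode only a few amino acids, and many are included in neurons alone.

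The site windows that carry the main patterns are printed below on mm10, 5′ to 3′, in the direction of transcription, with bases taken from GENCODE M21 transcripts that cover them. Capitals mark the pair of intron bases at the annotated site and the pair at the unannotated site. In the donor windows the first pair is the annotated donor and the later pair is the unannotated one.
Pitpna donor, 4 bases downstream (chr11:75603459-75603488, plus strand): gcctacccttactgcagaaccgGTgaGTgc
Sh3glb2 donor, 4 bases downstream (chr2:30350270-30350299, minus strand): gccaaagccacgGTaaGTactcctgcccct
Abi2 donor, 4 bases downstream (chr1:60437221-60437250, plus strand): catggagtgaagGTagGTgtagtttctgtc
Dctn2 donor, 10 bases downstream (chr10:127267474-127267503, plus strand): tttgatgcgGTaagactgtGTgctacctca
Mrpl33 donor, 8 bases downstream (chr5:31614013-31614042, plus strand): gctgtctcttGTaagtcgGTctgaggcggc
Uchl1 donor, 9 bases downstream, with GC (chr5:66676314-66676343, plus strand): aaccccgagGTaagcataGCtgctgggtcg

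The acceptor windows show moves of 3 bases in both directions, a move of 5 bases and a move of 1 base. In Ap2a2, Ewsr1 and Penk the first pair is the unannotated acceptor, and in Zcchc18 and Atp5j it is the annotated one.
Ap2a2 acceptor, 3 bases upstream (chr7:141611319-141611348, plus strand): tgtgtcctgcccAGaAGaccctgcggtgcg
Ewsr1 acceptor, 3 bases upstream (chr11:5079508-5079537, minus strand): cgtttatccccccAGcAGcgctggagagcg
Zcchc18 acceptor, 3 bases downstream (chrX:136993693-136993722, plus strand): ctttttctccatAGcAGctcatcaaagccg
Atp5j acceptor, 5 bases downstream (chr16:84831492-84831521, minus strand): taatgcttctctAGtacAGagactcagcca
Penk acceptor, 1 base upstream, where AG and the annotated GC overlap (chr4:4138133-4138162, minus strand): ttcttctctcctacAGCccatggcgcggtt

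Most of the models differed from the annotation at a single site. In 186 of the 230 models 1 site was unannotated, in 38 there were 2, and in 6 there were 3 or 4. Counted once each, the unannotated sites numbered 280, 154 donors and 126 acceptors, and 133 of them (47.5%) lay within 30 bases of an annotated site of the same kind in the same gene. Another 61 were over 1000 bases from the nearest such site. By structure, 92 models had only a moved donor and 82 only a moved acceptor. A further 14 had an intron cut out of an annotated exon, 13 a new first exon, 11 a new internal exon, 1 a new last exon and 17 a mixture. Of the sites, 160 lay within the coding span of the gene, 79 before it, 34 after it and 7 in genes without coding sequence.

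**Figure D1:**
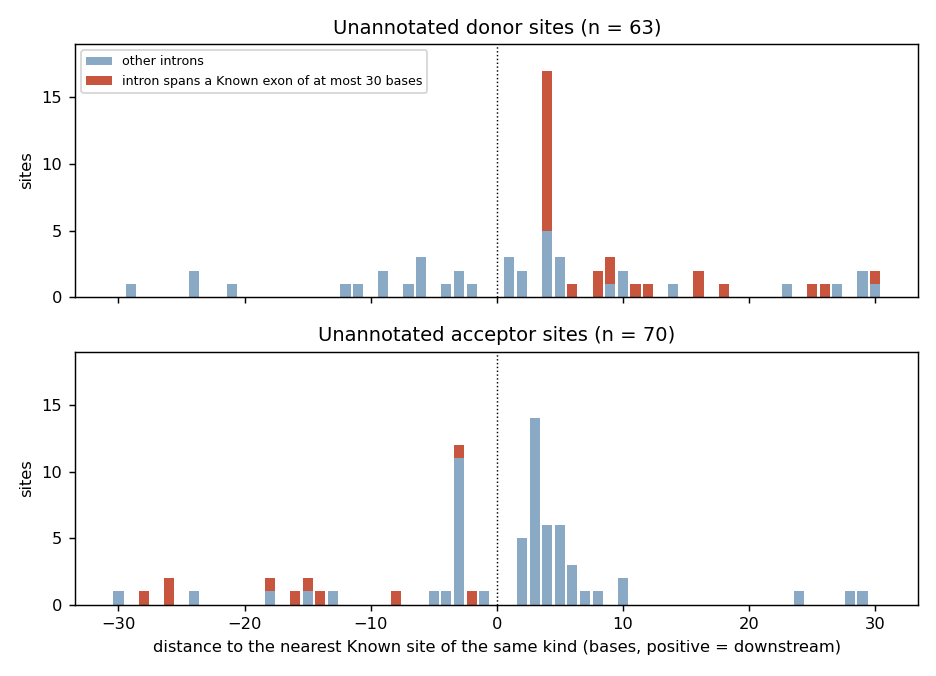
Number of unannotated donor sites (upper panel, 63) and acceptor sites (lower panel, 70) at each distance from the nearest annotated site of the same kind, within 30 bases, with positive distances downstream. The tallest bars are donors 4 bases downstream (17 sites) and acceptors 3 bases downstream (14) and 3 bases upstream (12). Red marks sites whose intron spans an annotated exon of at most 30 bases.

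Donors moved mostly outward, so that the exon gained bases. Many of the outward moves were in introns that span a small annotated exon, described further on, and all 33 such introns only gained bases. Among the 122 other introns with unannotated sites within 100 bases, donors and acceptors together, 49 only gained and 73 lost bases at an end. Of 63 donors within 30 bases, 47 lengthened the exon and 16 shortened it, and 17 lay exactly 4 bases downstream. At these 17 donors the use of the unannotated site, its reads as a share of its reads plus those of the annotated neighbour, ran from 1.18% to 99.6% in replicate 1 with a median of 68.5%, and from 1.65% to 100% in replicate 2 with a median of 65.0%. The pair of bases could be read in 6 of the 17 and was GT in all 6. Of the 17, 12 belonged to introns that span a small annotated exon. The Pitpna model had the most reads of the 230 models and the highest use among the 17 donors.

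Pitpna encodes the phosphatidylinositol transfer protein alpha, which carries phosphoinositide lipids between membranes. Its model had 248 reads in replicate 1 and 233 in replicate 2, which was 98.4% and 97.5% of the gene's full-splice reads (reads of models whose whole intron chain was classed, that is Known, NNC and the class NIC for new combinations of known sites). The mean share was 98.0% ± 0.653 (SD, n = 2). Over all models, the donor 4 bases downstream had 255 and 242 reads and the annotated donor had 1 and 0. Nearly every Pitpna read of this intron in both libraries was therefore placed on the site that the annotation lacks.

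Sh3glb2, which encodes endophilin B2, a membrane-bending protein, had 105 and 94 reads for a model with unannotated donors at 2 introns, 39.8% ± 3.29 (SD, n = 2) of the gene. The donor 4 bases downstream was used at 64.5% and 67.9% and the other, 16 bases downstream, at 93.7% and 95.2%. Ergic3, a membrane protein of the early secretory pathway, had 98 and 72 reads for a model with the donor 4 bases downstream, used at 68.5% and 70.5%. Rundc1 had 60 and 40 reads for such a model, with a use of 91.4% and 87.0%. At the low end the donor 4 bases downstream in Mlf2 was used at 1.18% and 1.65% beside 584 and 535 reads of the annotated donor, and in Snap91, which encodes a clathrin adaptor of synaptic vesicles, at 4.43% and 5.92%. The same distance thus covered sites that took nearly all reads and sites that took few.

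Several of the most read donor moves at other distances were outward too. Dctn2, the dynamitin subunit of the dynactin complex that links dynein to its cargo, had 132 and 141 reads for a donor 10 bases downstream, 85.5% ± 3.58 (SD, n = 2) of the gene. The annotated Dctn2 donor had 7 and 11 reads over all models against 141 and 151 for the unannotated one. Mrpl33, a protein of the large mitochondrial ribosomal subunit, had 74 and 44 reads for a donor 8 bases downstream and 92.7% ± 1.42 (SD, n = 2) of its gene. Uchl1, a ubiquitin hydrolase abundant in neurons, had 164 and 145 reads for a donor 9 bases downstream that begins with GC, and a share of 81.4% ± 1.41 (SD, n = 2). Atp2c1, the calcium and manganese pump of the Golgi, had 104 and 70 reads for a donor 6 bases downstream, at 55.4% ± 3.87 (SD, n = 2).

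At 3 donors the site lay a single base downstream of the annotated one, and no read in either library used the annotated base. These were in Rab3a, the small GTPase of synaptic vesicles (239 and 198 reads over all models), in Vdac3, an anion channel of the outer mitochondrial membrane (144 and 135 reads), and in Psd2 (6 and 7 reads). The Rab3a model itself had 227 and 192 reads and held 28.0% ± 0.555 (SD, n = 2) of the gene, with the moved site before the coding sequence. The Vdac3 model had 137 and 126 reads and held 89.1% ± 0.573 (SD, n = 2). The intron bases at the Rab3a, Vdac3 and Psd2 donors were not covered by a transcript and are not given.

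Inward donor moves were fewer. Zer1, an adaptor of a ubiquitin ligase, had 25 and 44 reads for a donor 6 bases upstream, 19.4% ± 6.08 (SD, n = 2) of its gene. Entpd4 and Entpd4b, nucleotide-hydrolysing enzymes of the Golgi region, each had a donor 24 bases upstream, with 32 and 34 reads in Entpd4 and 37 and 39 in Entpd4b. These are near-identical neighbouring copies on chromosome 14, the sources used here do not say how reads were divided between copies, and their values of 55.1% ± 1.54 and 55.1% ± 0.921 (SD, n = 2) are uncertain for that reason. Clip4, a microtubule-linked protein, had 14 and 19 reads for a donor 4 bases upstream that begins with GC, used at 94.1% and 96.2%.

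Acceptors showed a different profile: short moves in both directions with 3 bases the commonest. Of 70 acceptors within 30 bases, 41 shortened the exon and 29 lengthened it. Acceptors 3 bases downstream (14 sites) had a median use of 19.2% in replicate 1 and 22.6% in replicate 2, and those 3 bases upstream (12 sites) 29.2% and 29.7%. All 14 downstream sites had a readable pair and it was AG in each. Of the 12 upstream sites only 3 could be read, with AG in 2 and AT in Rwdd4a. For comparison, an exon that opens with any base followed by AG, the layout that offers an acceptor 3 bases further in, was found at 5.56% of 244765 annotated acceptors.

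Among the acceptors 3 bases upstream, Ap2a2, an alpha subunit of the clathrin adaptor AP-2, had 81 and 66 reads, 30.9% ± 0.508 (SD, n = 2) of the gene. Ogfrl1, an opioid growth factor receptor-like protein, had 71 and 49 reads, 29.4% ± 3.89 (SD, n = 2). Ewsr1, an RNA-binding protein, had 32 and 31 reads, 25.7% ± 0.429 (SD, n = 2). Each of these 3 adds 1 amino acid at the site and leaves the annotated stop in place, though 1 codon of the Ogfrl1 model could not be read. Each site shared its intron with a still more used annotated acceptor (180 and 152 reads for Ap2a2).

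Among the acceptors 3 bases downstream, Sort1, which encodes the sorting receptor sortilin, had 38 and 29 reads, 32.9% ± 4.21 (SD, n = 2) of the gene. Aagab, an adaptin-binding protein, had 23 and 33 reads, 39.9% ± 1.24 (SD, n = 2). Both omit 1 amino acid. Api5, an inhibitor of apoptosis, had an acceptor 5 bases upstream in 36 and 47 reads, 37.1% ± 1.56 (SD, n = 2). Zcchc18 had 21 and 20 reads for a site before its coding sequence, 8.65% ± 0.628 (SD, n = 2). The highest use at this distance in replicate 1 was in Dnajb5, a co-chaperone, at 77.8% (63.6% in replicate 2), and in replicate 2 in Tmco3, with 18 reads against 8 for the annotated acceptor (15 against 15 in replicate 1). The lowest were in Lztr1, at 2.48% and 4.02%, and Lrpap1, a chaperone of lipoprotein receptors, at 2.48% and 2.28%.

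Acceptors 4 and 5 bases downstream (6 sites each) were used less. The median was 10.7% and 10.5% at 4 bases and 4.87% and 8.06% at 5 bases, in replicates 1 and 2. Got2, the mitochondrial aspartate aminotransferase, had 25 and 23 reads for a model in which the donor and the acceptor of 1 intron both lay 4 bases downstream, so that the exon before gained 4 bases and the exon after lost 4. Its frame returned to the annotated stop at the same length of 430 amino acids, 2 of whose codons could not be read. It was the only 1 of 8 introns with both sites unannotated and nearby whose ends moved by equal amounts. Flywch1 (20 and 22 reads) and Sec23a, a coat protein of transport vesicles (10 and 13 reads), had the acceptor 4 bases downstream. Atp5j, the coupling factor 6 of ATP synthase, had 19 and 21 reads for an acceptor 5 bases downstream, 24.3% ± 4.19 (SD, n = 2), while Nsmf, which carries signals from synapse to nucleus, had 16 and 14 reads and 2.41% ± 0.170 (SD, n = 2).

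Penk, the precursor of the enkephalin opioid peptides, held nearly all of its gene's full-splice reads in 1 unannotated model. The model had 35 reads of 36 in replicate 1 and 24 of 24 in replicate 2, a mean share of 98.6% ± 1.96 (SD, n = 2). Its acceptor lay 1 base upstream of the annotated one, before the coding sequence, and no read used the annotated acceptor. The unannotated acceptor ends in AG and the annotated one in GC. It was the only site, of 35 nearby sites where both pairs could be read, at which the unannotated pair was the standard one and the annotated pair was not. At 29 of the 35 both pairs were standard, and at 5 the annotated pair was standard and the unannotated one was not.

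Of all unannotated sites with readable bases, 56 of 62 donors were GT and 6 were GC, and 73 of 75 acceptors were AG. The other acceptors were AT in Rwdd4a and GC in Cadps2. Of 47 introns with all 4 end bases readable, 44 ran from GT to AG, which is 93.6% (95% exact Clopper-Pearson interval 82.5% to 98.7%). Weighted by the reads of the models, the share was 83.4% (1778 of 2133 reads). Annotated introns with at least 5 reads in each library and readable bases had GT at 98.6% of 16613 donors, GC at 1.11%, and AG at 99.7% of 15296 acceptors. Readable bases are those inside some annotated exon, so these shares describe only that part of the sites.

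A set of the models shared a feature that the rule did not use: their unannotated intron ran across a whole annotated exon of 30 bases or fewer that the model lacked. Of 155 distinct introns whose unannotated sites all lay within 100 bases of annotated ones, 33 (21.3%) spanned such an exon, in 32 models of 31 genes. Among 89136 annotated introns with at least 5 reads in each library, 319 did (0.358%). An annotated intron can do so only where the annotation already holds a form without the exon. The closer comparison is with nearby introns of less supported NNC chains. There it was 5.15% for chains in both libraries with under 5 reads in at least 1. For chains in 1 library it was 5.31% at 2 to 4 reads and 3.07% at 1 read. Where an intron spanned 2 small exons (Pitpna and Cadps2), only the more read exon was counted, or the shorter at equal reads. Of the 33 exons counted, 29 were coding, and their lengths ran from 3 to 25 bases with a median of 15. In all 33 introns the flanking exons only gained bases, whereas among the other 122 nearby introns 49 only gained and 73 lost bases at an end.

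The exons that 6 of the more read models span are shown (for Pitpna 1 of its 2), chosen after their values were seen. They are on mm10 from GENCODE M21, to set beside the windows above.
Pitpna exon, 8 bases (chr11:75608107-75608114, plus strand): ttattaca
Uchl1 exon, 12 bases (chr5:66676436-66676447, plus strand): atgctgaacaaa
Acap3 exon, 12 bases (chr4:155901004-155901015, plus strand): acactcctgcag
Sh3glb2 exon, 12 bases (chr2:30349226-30349237, minus strand): tgtgagggcgat
Sh3glb2 exon, 15 bases (chr2:30346059-30346073, minus strand): ctcccagggtgccat
Mrpl33 exon, 19 bases (chr5:31614603-31614621, plus strand): ttgccaagagcaagtcaaa
Suds3 exon, 20 bases (chr5:117106646-117106665, minus strand): agctcttcctccagctggaa

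No read in either library contained any of these 7 exons between its annotated splice sites, and this held for 24 of the 33. In Pitpna the flanking exon gained 4 bases across 2 small exons, 1 of them the 8-base exon shown. In Uchl1 the flanking exon gained 9 across 12, and in Mrpl33 8 across 19. Acap3, a GTPase-activating protein for Arf proteins, had 151 and 132 reads for an acceptor 15 bases upstream across an exon of 12, 78.2% ± 3.26 (SD, n = 2) of the gene. Suds3, a subunit of the Sin3 corepressor complex, gained 4 bases before and 16 bases after an exon of 20 in 54 and 43 reads. Of the 33 introns the gain equalled the exon length in 3 (Suds3, Pcgf6 and Rwdd4a), was smaller in 19 and larger in 11, and was within 3 bases of it in 13. Where the gained bases could be read (9 introns, 77 bases), 19 (24.7%) were identical to the bases at the matching end of the spanned exon, and in none of the 9 were all identical. Whether this exceeds the match between unrelated bases was not tested.

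**Figure D2:**
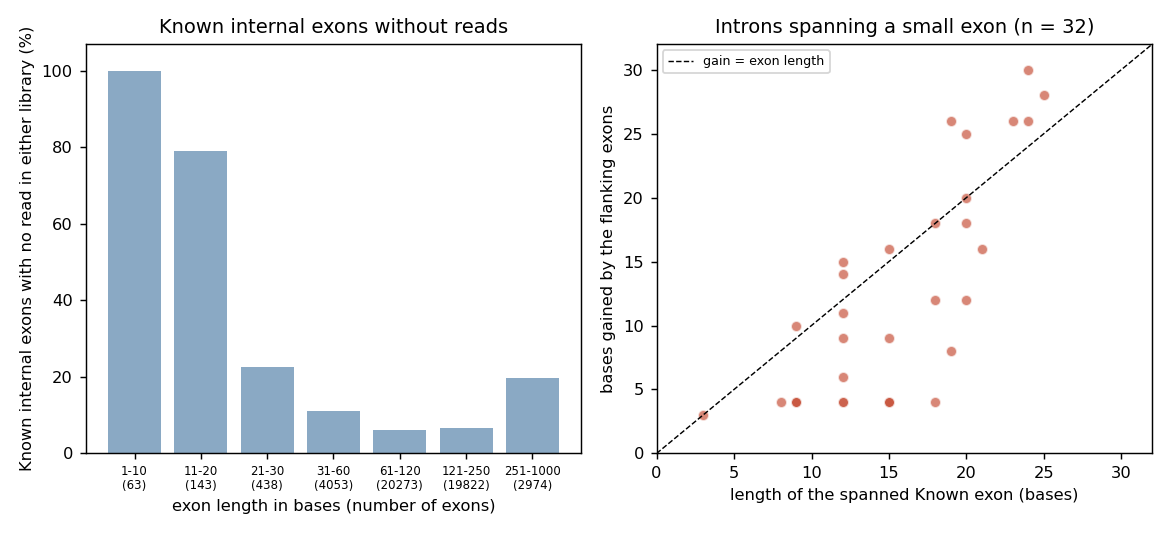
Left, the percent of annotated internal exons that no read contained in either library, by exon length in bases, in genes with 20 or more full-splice reads per library; the number of exons is under each bar, and the bars fall from 100% at 1 to 10 bases to 6.22% at 61 to 120 and stand at 19.8% in the longest class. Right, bases gained by the flanking exons against the length of the spanned exon for 32 introns (Cct6a, with a gain of 94 bases across an exon of 13, is beyond the axis); the dashed line marks equal values.

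The shortest annotated exons were seldom contained in reads, and detection rose with length up to 120 bases. In genes with 20 or more full-splice reads per library, 0 of 63 annotated internal exons of 1 to 10 bases were contained in a read, and 113 of 143 (79.0%) of 11 to 20 bases were not. The share without a read was 22.6% of 438 exons at 21 to 30 bases, 11.1% at 31 to 60 and 6.22% at 61 to 120. Over all models with reads, 6 of 173952 internal exons had 10 bases or fewer. The shortest internal exon of any of the 230 models had 15 bases. Whether these short exons were present in the RNA was not tested.

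A few spanned exons were well read, and there the unannotated model was a minor form. The 25-base exon of Bsg, which encodes the surface glycoprotein basigin, had 621 and 499 reads beside 32 and 22 for the model that spans it. The 18-base exon of Atp2a2, the calcium pump of the endoplasmic reticulum, had 213 and 216 reads beside 8 and 8, and the 15-base exon of Snap91 had 190 and 152 beside 5 and 5. In 29 of the 33 introns, however, the spanning model had more reads than the exon. The use of the unannotated site was correspondingly high: a median of 84.2% and 87.5% over 35 nearby sites with a spanned small exon, against 15.3% and 15.5% over the 98 nearby sites without one.

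**Figure D3:**
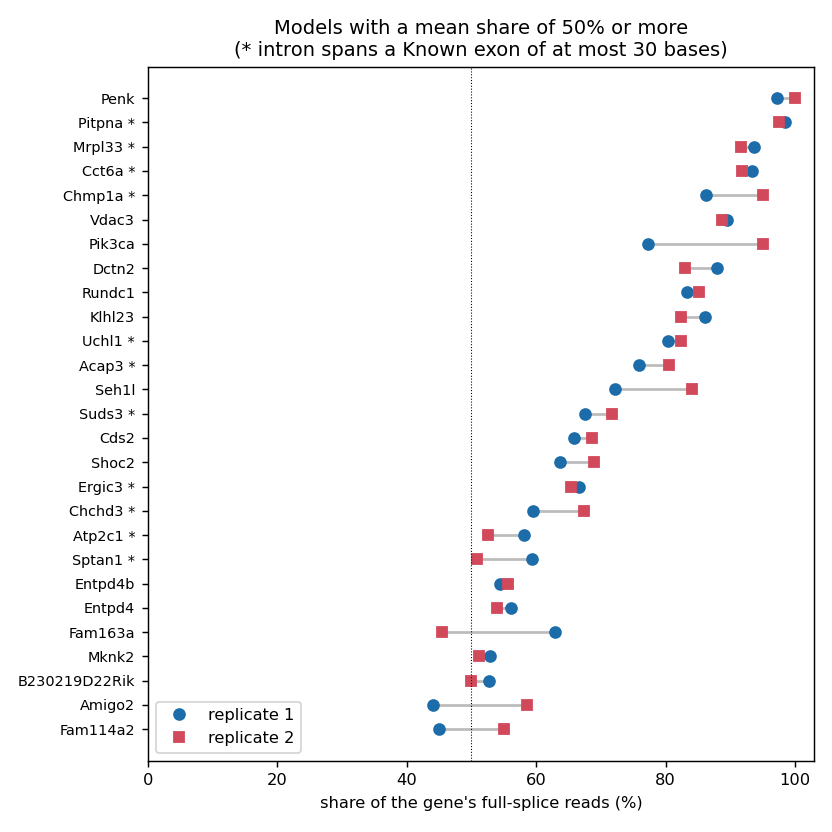
Share of the gene's full-splice reads held by each of the 27 models with a mean of 50% or more, in replicate 1 (circles) and replicate 2 (squares). An asterisk marks the 11 models with an intron that spans a small annotated exon; Penk and Pitpna are at the top with means of 98.6% and 98.0%.

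Most of the models were minor forms of their gene and some were the main form. In the 200 models of genes with 20 or more full-splice reads per library, the mean share had a median of 13.0% and quartiles of 4.64% and 30.4%, and it was under 10% in 91. The median spread between libraries was an SD of 1.48 percentage points. In 27 models the mean share was 50% or more and in 5 it was 90% or more (Penk, Pitpna, Mrpl33, Cct6a and Chmp1a). Without the 32 models that span a small exon the count at 50% or more was 16 of 180. With all reads of the gene as the denominator, in place of full-splice reads, 19 of the 200 models held 50% or more. Cct6a, a subunit of the cytosolic chaperonin, held 92.6% ± 1.13 (SD, n = 2) with 127 and 123 reads; GENCODE M21 gives this gene no coding sequence. Chmp1a, a protein of the ESCRT membrane-cutting machinery, held 90.7% ± 6.21 (SD, n = 2) with 63 and 58 reads.

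The 14 models with an intron cut out of an annotated exon had a median of 9 reads in replicate 1 and 13 in replicate 2. Their introns numbered 15, since Zdhhc18 had 2, and ran from 39 to 2093 bases with a median of 174. Of these 15, 10 lay after the coding sequence, 13 ran from GT to AG and the other 2 began with GC. Not all need be wholly new introns. Those of Mlf2 and Cpt1c ran between sites 4 and 5 bases downstream of an annotated donor and acceptor, and were counted here because an annotated exon covers them. B230219D22Rik lost 174 bases after its coding sequence in 39 and 27 reads, 51.4% ± 1.91 (SD, n = 2) of the gene. Cds2, an enzyme of phosphatidylinositol synthesis, lost 135 bases in the same region in 29 and 24 reads, 67.2% ± 1.88 (SD, n = 2). Gpd1l, a glycerol phosphate dehydrogenase-like enzyme, lost 993 bases there in 20 and 20 reads. Lrrc47 lost 46 bases within the coding span in 33 and 31 reads, 49.5% ± 4.29 (SD, n = 2). Ythdf1, a reader of methylated adenosine in mRNA, lost 573 bases within the coding span in 7 and 19 reads, an intron that begins with GC and leaves 368 of 559 amino acids.

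The 15 distinct new internal exons, which include those in models of mixed kind, had lengths of 21 to 230 bases with a median of 53. Of these, 8 lay within the coding span and 6 had a length that is a multiple of 3. Kcng2, a modifier subunit of potassium channels, had 23 and 24 reads for a model with a 167-base exon before its coding sequence, 26.3% ± 1.5 (SD, n = 2) of the gene. Camkk1, a kinase that activates other calcium-dependent kinases, had 22 and 23 reads for a 145-base exon in the same region. Glrb, the beta subunit of the glycine receptor, had 18 and 14 reads for a 48-base exon, the 10th of 11. With it the frame runs to 512 amino acids in place of 496 if no stop lies in the 16 codons that could not be read. Gphn, which encodes gephyrin, the scaffold that holds glycine and GABA receptors at inhibitory synapses, had 8 and 7 reads for a 39-base exon. Sarnp, a protein of the mRNA export machinery, had 15 and 14 reads for a 53-base exon, after which the frame met an earlier stop.

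Of the 13 models with a new first exon, Snrpn had the most reads. Snrpn encodes the spliceosomal protein SmN and belongs to an imprinted region expressed from the paternal copy in brain. Its model with a new first exon, whose donor lay upstream of the nearest annotated donor at a distance of -42853 bases, had 47 and 46 reads, 5.80% ± 0.462 (SD, n = 2) of the gene. A further 2 Snrpn models, with 24 and 13 and with 13 and 7 reads, began at other unannotated first-exon donors and shared a 104-base unannotated exon, their 3rd. All 3 Snrpn models kept the annotated coding sequence of 240 amino acids. G3bp2, a stress granule protein, had 25 and 17 reads for a first exon whose donor lay at -54023 bases. Pik3ca, the catalytic subunit of a phosphoinositide kinase, had 17 of 22 and 19 of 20 full-splice reads on a first exon 308 bases upstream, a mean share of 86.1% ± 12.5 (SD, n = 2) on few reads. Asphd2 had 15 and 19 reads for a first exon 410 bases upstream. The single new last exon was in Rnf130, a ubiquitin ligase, with 24 and 12 reads.

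Among models with a moved site far from any annotated one, Ncdn, which encodes the neuronal protein neurochondrin, had 87 and 69 reads for a donor 454 bases downstream, 5.83% ± 0.463 (SD, n = 2) of a gene with 1413 and 1254 full-splice reads. Seh1l, a protein of the nuclear pore, had 44 and 58 reads for an acceptor 1567 bases downstream, after the gene's annotated coding span, 78.1% ± 8.43 (SD, n = 2). That model did not contain the annotated stop codon, and its frame ran to 417 amino acids in place of 357. Klhl23 had 37 and 28 reads for a donor 346 bases downstream before its coding sequence, 84.2% ± 2.61 (SD, n = 2).

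The share of site moves by a multiple of 3 differed between introns with and without a spanned small exon. Of 118 coding sites within 100 bases of an annotated site, 56 moved by a multiple of 3, which is 47.5% (95% exact Clopper-Pearson interval 38.2% to 56.9%). Without a spanned small exon it was 48 of 84, 57.1% (45.9% to 67.9%), and with one it was 8 of 34, 23.5% (10.7% to 41.2%). These intervals treat sites as independent and cover counting error only, and the difference was not tested. Each site was counted by its own move, without the bases of a spanned exon or a move at the intron's other end. Where a small exon is spanned, the share is therefore not the effect on the frame. The Bsg acceptor, 28 bases upstream across an exon of 25, counts as no multiple of 3, yet that model reached the annotated stop. Of 31 models that span a small exon and could be followed, 12 reached it.

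Frames were also followed from the annotated start codon through each model, with reference bases at the model's coordinates and not the bases of the reads. The start, stop and length were those of the coding annotated transcript that shares the most introns with the model. That transcript may or may not hold a spanned small exon. The annotated stop was reached in 144 of 230 models: with an unchanged protein length in 84, a longer protein in 28 (12 of them by 1 amino acid) and a shorter one in 32 (14 of them by 1). An earlier stop was met in 58 models, and in 47 of the 58 it lay over 50 bases before the last junction, the position that in textbook terms exposes a transcript to nonsense-mediated decay. An annotated stop can lie there too, where an intron was cut out after the coding sequence. It lay 571 bases before the last junction in B230219D22Rik and 476 in Cds2, but 33 in Gpd1l. In 12 models the start codon was not contained, in 6 the annotated stop codon was not, in 4 the stop came after the annotated one, in 4 (Cct6a, Gm45441, AC154707.1 and Eif4g2) no annotated reading frame could be set and in 2 no stop was read. Codons with bases outside annotated exons could not be read and were passed over. No such codon occurred in 26 of the 58 models with an earlier stop and in 114 of the 144 that reached the annotated one.

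The models with an earlier stop included several of the most read. The Pitpna frame ended after 102 of 272 amino acids, that of Dctn2 after 38 of 402, that of Vdac3 after 50 of 283 and that of Sh3glb2 after 191 of 395. The Rab3a model kept its 220 amino acids and the Uchl1 model lost 1 of 223. The Suds3 frame returned to the annotated stop at the same length of 328, with 7 codons that could not be read. The Acap3 model gained 5 over 829, with 3 codons that could not be read. From start to annotated stop it was 15 bases longer than the annotated form, the acceptor gain alone, so that form lacked the spanned exon. The Sh3glb2 change of 20 bases was likewise its gain alone. For Uchl1 the change was -3 bases, the gain of 9 less the exon of 12. Among the models that span a small exon, 19 of 31 with a frame that could be followed to a stop met an earlier one, and among the others 39 of 175 did. The mean share of the gene had a median of 6.09% in the 36 models with an earlier stop and no spanned small exon (genes with 20 or more full-splice reads per library), and of 12.5% in the 120 such models that reached the annotated stop. That difference was not tested, since read counts chose the models.

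**Figure D4:**
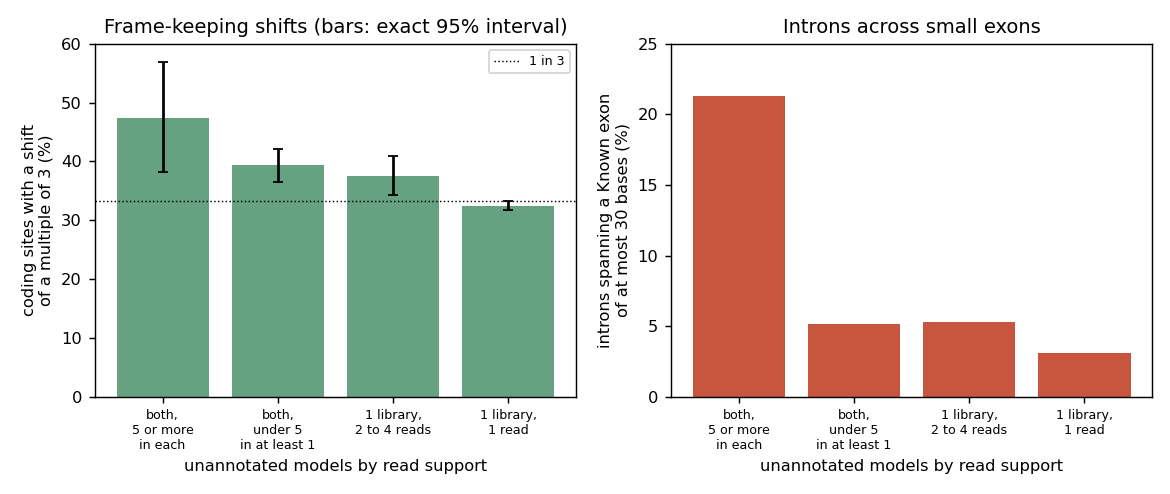
Unannotated models grouped by read support: in both libraries with at least 5 reads in each, in both with fewer in at least 1, in 1 library with 2 to 4 reads, and in 1 library with 1 read. Left, percent of coding sites within 100 bases of an annotated site that moved by a multiple of 3, with exact 95% intervals and a dotted line at 1 in 3, from 47.5% down to 32.5%; right, percent of nearby introns that span an annotated exon of at most 30 bases, from 21.3% down to 3.07%.

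Set beside the less supported unannotated models, the 230 had a larger share of sites close to annotated ones and of moves by a multiple of 3. In the 2542 chains that were NNC in both libraries with fewer than 5 reads in at least 1, 38.4% of 3118 sites lay within 30 bases, against 47.5% of the 280. In the 29572 chains with 1 read in 1 library it was 35.5% of 39734. Moves by a multiple of 3 made up 39.4% (36.6% to 42.2%) of coding sites in the former group and 32.5% (31.8% to 33.2%) in the latter. Acceptors moved by 3 bases in either direction were 9.29%, 6.45% and 3.30% of sites in the 3 groups, and donors 4 bases downstream 6.07%, 5.04% and 5.82%. A spanned small exon was found at 21.3%, 5.15% and 3.07% of nearby introns. Support also goes with the level of the gene: the genes of the 230 models had a median of 134 CPM, against 19.8 CPM over 14787 annotated genes read in both libraries, and the part of gene level in these differences was not tested.

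The models took nearly the same share of both libraries. They held 4874 reads in replicate 1 (0.590%, 95% exact interval 0.573% to 0.606%) and 4402 in replicate 2 (0.590%, 0.573% to 0.608%), which were 16.5% and 16.1% of all reads in NNC models. A model had between 5 and 248 reads in replicate 1 with a median of 11, and between 5 and 233 in replicate 2 with a median of 10. Each chain's share of its gene's full-splice reads was compared between the libraries with a two-sided Fisher's exact test, which compares the reads of these libraries and not conditions. Of 55438 chains tested, 16 (0.0289%) passed a Benjamini-Hochberg adjusted p of 0.05, and 0 of the 200 models tested did; the condition of 5 reads in each library had already kept out models seen in 1 library alone. At an unadjusted p under 0.05 there were 6 of 200 models (3.00%), and 3.23% of all 7119 chains with at least 5 reads in each library.

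The smallest p was that of Ythdf1, with 7 of 43 full-splice reads in replicate 1 and 19 of 43 in replicate 2 (Fisher's exact test, p = 0.00909, adjusted p = 1). The next were Cbarp, with 5 of 149 and 13 of 108, Tmem132a, with 16 of 71 and 5 of 63, Abi2, an Abl interactor of the actin machinery, with 24 of 95 and 40 of 101, a second Acap3 model, with 20 of 199 and 7 of 164, and Zer1, with 25 of 166 and 44 of 186. A p that misses the threshold at these counts does not show that the shares were equal.

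**Figure D5:**
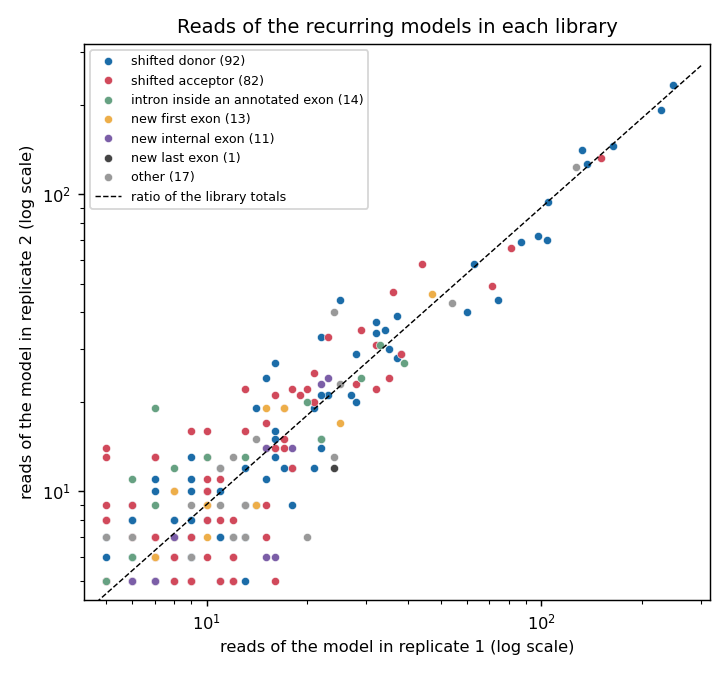
Reads of each of the 230 models in replicate 1 (horizontal) and replicate 2 (vertical), both on log axes, coloured by structural kind with the number of models in brackets. The dashed line is the ratio of the library totals; the points lie along it, from 5 reads in each library to 248 and 233 for Pitpna.

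At the threshold the read counts pass without a break. The lower library had exactly 5 reads in 49 models, among them Tmem132a (16 and 5), Trir (5 and 14) and Ap1g1, a subunit of the clathrin adaptor AP-1 (13 and 5). It had exactly 4 reads in 63 NNC chains just outside, among them Cpne7 (17 and 4), Mettl9 (12 and 4) and Reep2 (4 and 11). Many sites did not rest on 1 model alone: 167 of the 280 were used by more than 1 model in each library.

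The machinery that recognises splice sites was read in both libraries. All 10 genes of the donor recognition list were read, with a median of 52.0 and 59.7 CPM, and all 16 of the branch point and acceptor list, with 57.5 and 51.6 CPM. The 9 minor spliceosome genes had medians of 21.8 and 18.8 CPM and the 15 nonsense-mediated decay genes 27.8 and 30.9 CPM. Of these genes 1 had a model among the 230: Zmat5, a protein of the minor spliceosome, with a donor 9 bases upstream in 9 and 10 reads. Among the tissue markers Snap25, a vesicle fusion protein, Gad1, the enzyme that makes GABA, and Aldoc, an astrocyte aldolase, each had 1 such model, at 1.81%, 3.87% and 0.454% of the gene on average.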

How the data were processed

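Reads of 2 long-read libraries of hippocampus total RNA were analysed from the deposited tables, with 826596 and 745492 reads outside the spike-ins. The authors deposited whole-number read counts per transcript model, listing models with at least 1 read, with model structures on mm10 against GENCODE M21 and, per the file headers, built with TALON; the aligner, the platform and the versions are named nowhere in the material used. Each library was annotated on its own, so an intron chain can have a different class in each table, and models were matched on chromosome, strand and every intron coordinate.

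Distances were measured to the nearest site of the same kind in Known models of the gene, counting Known models of the structure files whether read or not. Bases came from exon sequence of 141767 GENCODE M21 transcripts, so intron bases outside any annotated exon were not read, and CAST/EiJ alleles were not read. A frame call changes with any shift of a coordinate. Chain shares were compared with Fisher's exact test over 55438 chains, in genes whose full-splice reads numbered 20 or more per library, with Benjamini-Hochberg adjustment, by a script tested on simulated data. Shares carry 95% exact Clopper-Pearson intervals, which like all intervals here cover counting error only, since reads carry no stated molecular identifiers. Python 3.11.15, pandas 2.3.3, numpy 2.4.6 and scipy 1.17.1 were used, and edgeR 4.0.16 and DESeq2 1.42.0 for scaling factors alone.

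The models and gene lists were chosen with earlier results of these data known. Models named were those with the most reads in all, in each structural kind, at each of the 5 commonest shifts, among non-standard introns, and among kept and early stops, those with the highest shares, those with the smallest p, and those at the threshold; Mlf2, Snap91, Psd2, Zer1, Entpd4, Entpd4b, Dnajb5, Tmco3, Lztr1, Lrpap1, Bsg, Atp2a2, Cadps2, Pcgf6, Gphn, Zdhhc18, Zmat5 and the marker genes were added after their values were seen. Alternatives covered the read minimum, the class, the distance limit, the denominator, the scaling and each library alone.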

Additional observations from a re-analysis of the deposited data

How the results depend on the processing

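No paired analysis was possible because the series has 1 group of 2 libraries. With 8 results and 50 alternatives, 38 of them planned, 30 stayed within the limits set for a change and 20 did not; the others were added after seeing the data. The count of 230 models followed the read minimum: 805 at 2 reads in each library, 453 at 3, 101 at 10 and 52 at 20, and 413 to 463 where 1 library alone had to hold 5 reads. Admitting any chain with an unannotated site and the class NIC or NNC in each table gave 377. Sites within 30 bases numbered 224 at 3 reads, 65 at 10 reads and 223 to 240 with 1 library alone. Moves by a multiple of 3 were 57.1% of coding sites without the models that span a small exon. Models at 50% or more of the gene numbered 15 in genes with 50 full-splice reads, 48 with no such minimum and 16 without the models that span a small exon; with 1 library alone it was 26 to 30. The median level of 12.9 CPM was 19.7 CPM over full-splice reads and 13.3 to 13.4 with 1 library alone. Introns that span a small exon numbered 50 to 55 with 1 library alone. The count of 0 models called by Fisher's exact test held in the 3 alternatives run, with 5 to 8 at an unadjusted p under 0.05. At 5 reads a model's own count has a wide counting error, so shares in genes near 20 full-splice reads are imprecise, and splice sites in lowly read genes are not reached at this depth.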

Other observations

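Some chains with an unannotated site had the same introns in both libraries but a different class in the 2 tables, and so lie outside the 230 models. There were 106 chains, in 93 genes, that were NNC in 1 table and another class in the other, with at least 5 reads in each library. Their 143 unannotated sites included 62 within 30 bases of an annotated site, and 23 of the chains had an intron that spans an annotated exon of at most 30 bases. The most read was that of Nrgn, which encodes the postsynaptic protein neurogranin, with 1343 and 1220 reads, 98.4% and 97.8% of the full-splice reads of the gene. Its acceptor lay 17 bases upstream of the annotated one, across a small exon, and its class was NIC in replicate 1 and NNC in replicate 2. Capn2, a calcium-dependent protease, had 51 and 46 reads for a donor 17 bases downstream, 98.1% and 95.8% of the gene. Rph3a, a Rab3 effector at the synapse, had 65 and 64 reads, and Idh3g, a subunit of mitochondrial isocitrate dehydrogenase, had 58 and 50, both for a donor 4 bases downstream across a small exon. Pak6, a kinase, had 38 and 30 reads for an intron with donor and acceptor each 4 bases downstream, 93.0% ± 2.89 (SD, n = 2) of the gene. Of the 88 such chains in genes with enough reads, 12 held 50% or more of the gene.

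A further 56 chains, in 43 genes, were NIC in both tables although a site of theirs was in no Known model of the gene. Of their 73 sites 39 lay within 30 bases, and 19 of the chains spanned a small exon. Of the 50 chains in genes with enough reads, 0 held 50% of the gene singly. Chains that share a site were not added together. Hnrnpk, an RNA-binding protein, had 5 such chains with the same donor 16 bases downstream, the most read with 135 and 119 reads and 38.4% ± 1.42 (SD, n = 2) of the gene. How the class was assigned in each table was not tested.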
